A study of Mus musculus with 4 samples.

Results

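The loss of Aspp1 in cells that keep p53 was described here by setting 1 array of Aspp1-/- cells against 1 array of wild-type (WT) cells. Both arrays held RNA of LSK cells, which are bone marrow cells gated as lineage(-), Sca-1(+) and cKit(+), the small marrow fraction in which haematopoietic stem cells and multipotent progenitors lie. A gene entered where a probe was well above background, by the scanner's flag, on the Aspp1-/- array and on the WT array, and it was represented by its brightest such probe. This gave 20163 genes or transcripts of the 34821 on the array, of which 14023 were RefSeq genes out of 22229. The values below are of these 14023 genes unless transcripts are named.

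The 2 groups compared were Aspp1-/- mice and WT mice, and the labels give neither of them Mx1-Cre or floxed p53 alleles. Another pair of arrays, used below as a second look at the loss of Aspp1, came from Aspp1-/-p53-/- and p53-/- mice. In both of these groups p53flox/flox alleles were deleted by Mx1-Cre, a recombinase whose promoter answers to interferon, so that this pair differs from the first by Mx1-Cre as well as by p53. The Aspp1-/- and WT arrays also shared a row of arrays on the slide. The part of place on the slide in contrasts between the pairs was not tested. All mice were C57BL/6 males aged 12 weeks. All 4 genotypes, WT included, had received 5 injections of pIpC, a double-stranded RNA analogue that induces interferon, every other day from 8 weeks of age, and cells were taken 4 weeks after the treatment. The series design gives 400 μg per injection for all, whereas the sample labels read 401 μg for Aspp1-/-, 400 μg for WT, 403 μg for Aspp1-/-p53-/- and 402 μg for p53-/- mice. RNA of 3 mice was pooled per genotype and hybridised to 1 array. There was therefore no replicate, and no difference below carries a test or a spread between mice.

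ASPP1, the product of Ppp1r13b, belongs to a family of p53-binding proteins. ASPP1 and ASPP2 help p53 to bind the promoters of apoptosis genes, while the third member, iASPP, inhibits it. In stem cells at rest p53 is held low by Mdm2 and Mdm4 and is stabilised by DNA damage, upon which it switches on genes of cell cycle arrest (Cdkn1a), apoptosis (Bbc3, Bax) and its own feedback. Haematopoietic stem cells leave rest after interferon exposure, and the LSK gate also holds progenitors that already express some genes of the lymphoid or myeloid lineages.

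Values are processed signals of the scanner (linear, in its own units) and log2 differences, Aspp1-/- minus WT, between signals taken relative to the 75th percentile of each array, which was 597 on the Aspp1-/- array and 570 on the WT array. The scanner's error model gave a difference an error of 0.20 at the median and of 0.60 at most, which covers the spot and not the mice. As a rule of size, genes at least 2-fold apart (a log2 difference of 1) and at least 1.5-fold apart were counted. The sorting markers were in place: Kit had a signal of 18182 in Aspp1-/- and 17597 in WT cells, and Ly6a, which encodes Sca-1, had 3355 in Aspp1-/- and 3360 in WT cells. Of the lineage genes looked at, Cd8a was not well above background on either array. Cd4, with 1559 in Aspp1-/- and 1654 in WT cells, and Itgam, with 13033 in Aspp1-/- and 13127 in WT cells, were above it on both. On bulk RNA, fewer cells of a type and less RNA per cell cannot be told apart.

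The 2 arrays were alike. Across genes the levels correlated with r = 0.997, a description of these 2 arrays in which genes are not replicates. The differences had a median of 0.02 and an SD of 0.22, and 86.1% of the genes lay within 1.2-fold. At least 2-fold apart were 47 genes, 16 higher in Aspp1-/- cells (0.114% of all) and 31 lower (0.221%). At 1.5-fold there were 88 higher (0.628%) and 179 lower (1.28%). With the other transcripts counted too, 84 of 20163 were at least 2-fold higher (0.417%) and 91 at least 2-fold lower (0.451%). The large differences lay among dim genes. In the dimmest quintile of level, with a median signal of 60.5 in Aspp1-/- and 59.8 in WT cells, 14 genes were 2-fold higher and 25 lower with an SD of 0.36, whereas in the brightest quintile the SD was 0.13 and none was 2-fold apart. At a signal over 500 on both arrays, 8925 genes were measured and 2 passed 2-fold, Ppp1r13b and Gm5106.

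**Figure D1:**
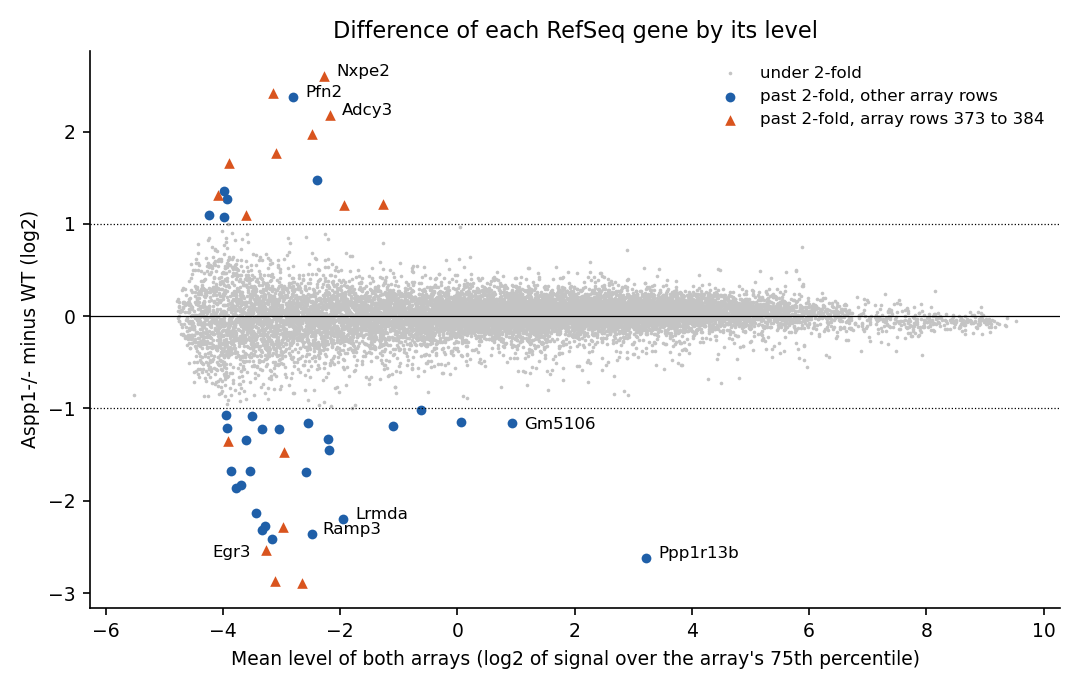
Log2 difference of each of 14023 RefSeq genes, Aspp1-/- minus WT, against its mean log2 level on both arrays relative to each array's 75th percentile. Grey points are under 2-fold, blue points are the 31 genes past 2-fold in array rows 1 to 372 and orange triangles the 16 in rows 373 to 384; Ppp1r13b at −2.62 stands alone at high level, and the other large differences lie at low level.

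Where a probe sat on the array moved with the size of its difference, a pattern noticed after the values were seen. The array has 384 rows of spots. The last 12 of them, rows 373 to 384, held 401 of the genes (2.86%) but 16 of the 47 past 2-fold (34.0%), 10 higher and 6 lower. Inside these rows 3.99% of genes passed 2-fold, against 0.228% outside them. Outside them the share was uneven. In rows 289 to 336 it was 0.859% of 1747 genes, 3 higher and 12 lower, against 0.14% in rows 193 to 288. In rows 289 to 336, 2.01% of the Aspp1-/- array's probes and 3.51% of the WT array's stood at least 2-fold above each of the other 3 arrays. For the Aspp1-/-p53-/- and p53-/- arrays the shares in these rows were 0.522% and 0.498%. In rows 379 to 384 the SD of the difference was 0.53, against 0.19 in rows 25 to 96. There, 18.7% of the Aspp1-/- array's probes stood at least 2-fold above each of the other 3 arrays, as did 13% of the WT array's, while the shares were 0% for the Aspp1-/-p53-/- array and 0.317% for the p53-/- array. In rows 1 to 6, at the opposite end, the shares were 0.156% for Aspp1-/- and 0.311% for WT, against 18.5% for Aspp1-/-p53-/- and 18% for p53-/-. Probes printed several times gave another reading. Their 86 spots in the last 12 rows of the Aspp1-/- array had an SD of 0.09 around the probe's median, and the 89 of the WT array 0.11, and none lay 2-fold from it, but these probes were bright, with a median signal of 2123 on the Aspp1-/- array and 1934 on the WT array. The part of position in the differences was not tested. The array row is therefore given for the lowest and the highest genes named below. Counts outside the last 12 rows were 6 genes 2-fold higher (0.044% of 13622) and 25 lower (0.184%), and they include the genes in rows 289 to 336.

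**Figure D2:**
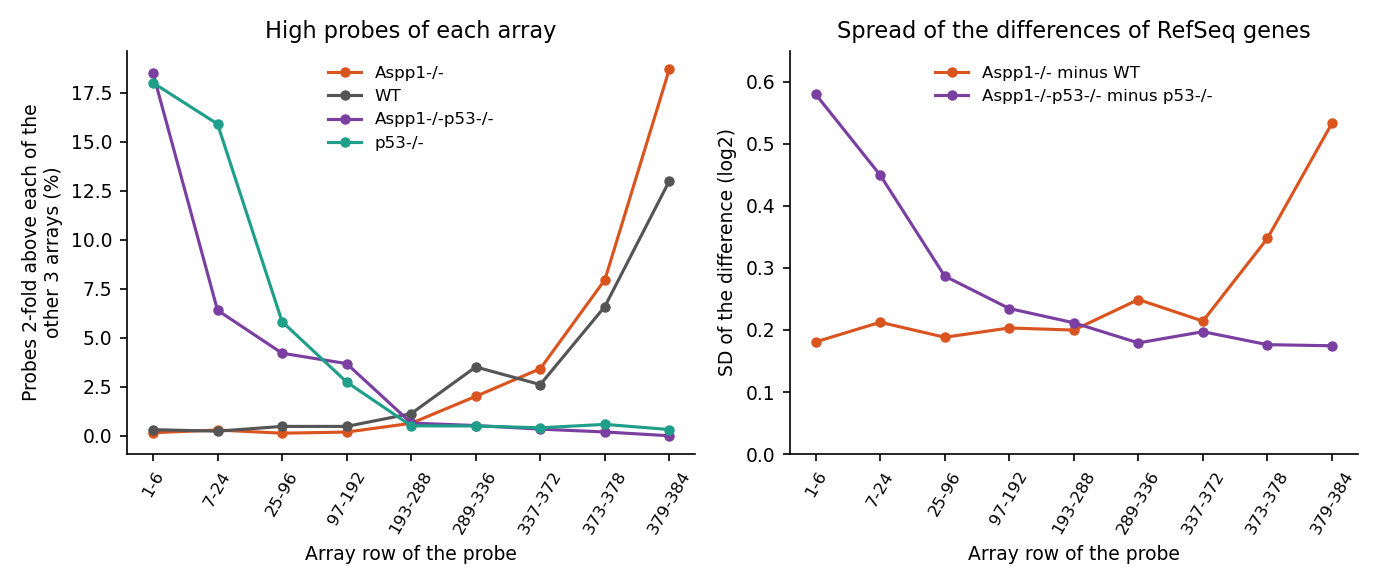
Left, the share of each array's probes (in %) that stood at least 2-fold above each of the other 3 arrays, by the row band of the probe on the array; right, the SD of the log2 differences of RefSeq genes in the same bands, for Aspp1-/- minus WT and Aspp1-/-p53-/- minus p53-/-. The Aspp1-/- and WT arrays reach 18.7% and 13% in rows 379 to 384, and the arrays without p53 reach 18.5% and 18% in rows 1 to 6.

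The targeted gene itself gave the firmest difference. Ppp1r13b (NM_011625; probe on chromosome 12, 113066670 to 113066729, minus strand, mm9, array row 270) had a signal of 2247 in Aspp1-/- and 13182 in WT cells, and 2060 in Aspp1-/-p53-/- and 12759 in p53-/- cells. Both arrays of Aspp1-deficient cells were low and both others high. The log2 difference was −2.62 (scanner error 0.20) with p53 present, which leaves 16.3% of the WT level, and −2.52 in Aspp1-/-p53-/- against p53-/-, which leaves 17.5%. The residual signal was well above background, and the labels do not say whether the probe lies inside the deleted part of the gene; if it lies outside, the signal says nothing of the deletion itself.

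The rest of the family was under 1.5-fold. Ppp1r13l, which encodes iASPP, had a signal of 1169 in Aspp1-/- and 971 in WT cells, a difference of 0.20. Trp53bp2, which encodes ASPP2, had 378 in Aspp1-/- and 340 in WT cells (0.09). Trp53 was at 820 in Aspp1-/- and 730 in WT cells (0.10), against 169 in Aspp1-/-p53-/- and 164 in p53-/- cells, so that its transcript was kept in Aspp1-/- cells. The p53 relatives Trp63 and Trp73 were at −0.13 and −0.07. The value of Trp63 rests on 1 probe, with 3119 in Aspp1-/- and 3266 in WT cells, while its other probes were not well above background on any array. Mdm4, an inhibitor of p53, had 399 in Aspp1-/- and 546 in WT cells (−0.52) on its brightest probe, but the mean of its probes gave −0.19.

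Genes that p53 is known to switch on did not move together. Of 34 measured p53 targets, 23 lay below 0 and 11 above it (45.1% of all genes lay below 0), their median was −0.05 against 0.02 for all genes, and none passed 1.5-fold. Fas, a death receptor, had a signal of 47.7 in Aspp1-/- and 67.4 in WT cells (−0.57). Plk2, a kinase of the p53 response, had 1432 in Aspp1-/- and 1867 in WT cells (−0.45), and Bbc3, the BH3-only protein PUMA, had 3574 in Aspp1-/- and 4472 in WT cells (−0.39). Those 3 were lower in Aspp1-/- cells, and Gdf15, a secreted stress factor, was higher, with 1828 in Aspp1-/- and 1261 in WT cells (0.47). Cdkn1a, the cell cycle inhibitor p21, was at 2346 in Aspp1-/- and 2530 in WT cells (−0.18). Among 29 apoptosis genes 17 lay above 0 and 12 below, with a median of 0.03. Besides Fas and Bbc3, the BH3-only genes Bcl2l11, with 132 in Aspp1-/- and 175 in WT cells (−0.47), and Bmf, with 209 in Aspp1-/- and 264 in WT cells (−0.40), and the inhibitor of apoptosis Birc3 (−0.41) were on the lower side. Bok, a BAX relative, was at 0.35.

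The largest differences need their array rows. Of the 12 lowest genes, 4 lay in rows 373 to 384: Ubxn10 (−2.89, row 380), Cstdc4 (−2.87, row 379), the immediate-early transcription factor Egr3 (−2.54, row 384) and the formin Fhod3 (−2.28, row 377). Their signals ran between 25.5 and 35.1 in Aspp1-/- and between 144 and 247 in WT cells, and none of the 4 was well above background on both arrays without p53. Of the 12 highest genes, 8 lay in these rows: Nxpe2 (2.60, row 382), Brinp3 (2.42, row 381), the adenylyl cyclase gene Adcy3 (2.18, row 373), Paqr6 (1.98, row 381), Gm3852 (1.77, row 377), Acsbg2 (1.66, row 379), Gdpd2 (1.32, row 380) and Sh3rf1 (1.22, row 382). For 2 of them a further probe elsewhere on the array was measured, and it did not repeat the size: it gave 0.15 for Paqr6 and 0.05 for Sh3rf1.

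Outside the last rows the lowest genes besides Ppp1r13b were Plch1, Ramp3, Cyp2j7, Nat1, Lrmda, Nlrp5 and 2900024J01Rik. Their array rows were 164, 190, 140, 316, 320, 333 and 294, in that order. Plch1, a phospholipase C, had 28.8 in Aspp1-/- and 146 in WT cells (−2.41). Ramp3, which turns the calcitonin receptor-like receptor into a receptor for adrenomedullin, had 47.1 in Aspp1-/- and 230 in WT cells (−2.36), and its other probe gave −1.98, with 52.3 in Aspp1-/- and 198 in WT cells. It is the gene among these for which 2 probes, in array rows 190 and 36, agreed. In p53-/- cells it had 40.9 and 40.1 on these probes and in Aspp1-/-p53-/- cells it was not well above background, so that among the 4 arrays WT stood high. Cyp2j7, a cytochrome P450, had 26.5 in Aspp1-/- and 126 in WT cells (−2.32), and in the second pair 26.9 in Aspp1-/-p53-/- and 32.5 in p53-/- cells. Lrmda had 71.7 in Aspp1-/- and 314 in WT cells (−2.20), with 152 in Aspp1-/-p53-/- and 207 in p53-/- cells. Nat1 (−2.28), Nlrp5 (−2.13) and 2900024J01Rik (−1.86) had signals between 22.9 and 27.8 in Aspp1-/- and between 79.4 and 129 in WT cells.

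The genes highest in Aspp1-/- cells outside the last rows were all dim. Pfn2, an actin-binding profilin, had 194 in Aspp1-/- and 35.7 in WT cells (2.37, array row 18), and in the second pair it was not well above background on both arrays. Gm13372 had 189 in Aspp1-/- and 64.7 in WT cells (1.48, array row 313), with 97.3 in Aspp1-/-p53-/- and 94.8 in p53-/- cells. Lyrm7, an assembly factor of respiratory complex III, was at 61.0 in Aspp1-/- and 22.6 in WT cells (1.36, array row 338). 2310034O05Rik was at 61.1 in Aspp1-/- and 24.1 in WT cells (1.28, array row 301).

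A further probe of the same gene gave a second reading of that gene from the same RNA pool and array, and no repeat of the comparison. Among 4219 genes with at least 2 measured probes, 59.3% had all probes on 1 side of 0, and among the 31 of them past 1.5-fold 23 did (74.2%). In 8 genes every measured probe passed 1.5-fold in 1 direction: Ramp3, Ly9, Tedc1, Cxcl12, Crem, DXBay18 and Ifi209 were lower in Aspp1-/- cells and Mid1 was higher. These genes were singled out after their values were seen. Ly9, a SLAM-family receptor of lymphocytes and multipotent progenitors, had 273 in Aspp1-/- and 527 in WT cells (−1.01, other probe −0.91), against 532 in Aspp1-/-p53-/- and 474 in p53-/- cells, so that it was low on the Aspp1-/- array alone. Ifi209, an interferon-induced gene, had 145 in Aspp1-/- and 208 in WT cells (−0.59, other probe −0.96). Mid1, a ubiquitin ligase on the X chromosome, had 173 in Aspp1-/- and 92.4 in WT cells (0.84, other probe 0.86). In the second pair it lay the other way, with 29.8 in Aspp1-/-p53-/- cells, not well above background, and 62.7 in p53-/- cells.

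The 24 genes past 1.5-fold at a signal over 500 on both arrays, 20 lower and 4 higher of 8925, lay where the spread of all genes was small, and those named next were chosen after their values were seen. After Ppp1r13b and Gm5106 (762 in Aspp1-/- and 1623 in WT cells, −1.16) the lowest was Irs2, an adaptor of insulin and IGF1 receptors, with 3324 in Aspp1-/- and 5724 in WT cells (−0.85). Tedc1, a tubulin complex protein, had 2830 in Aspp1-/- and 4863 in WT cells (−0.85). Lmna, which encodes lamins A and C of the nuclear envelope, had 3220 in Aspp1-/- and 5376 in WT cells (−0.81). Adgre5, the adhesion receptor CD97, had 9138 in Aspp1-/- and 14000 in WT cells (−0.68). On the high side stood Chtf8, a subunit of an alternative clamp loader, with 45435 in Aspp1-/- and 25851 in WT cells (0.75), Hspb1, a small heat shock protein, with 5661 in Aspp1-/- and 3287 in WT cells (0.72), Car12, a carbonic anhydrase, with 866 in Aspp1-/- and 529 in WT cells (0.64) and the early transcription factor Egr2, with 3526 in Aspp1-/- and 2240 in WT cells (0.59). Hspb1 had 4615 in Aspp1-/-p53-/- and 5804 in p53-/- cells, so that WT was the low array of the 4.

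**Figure D3:**
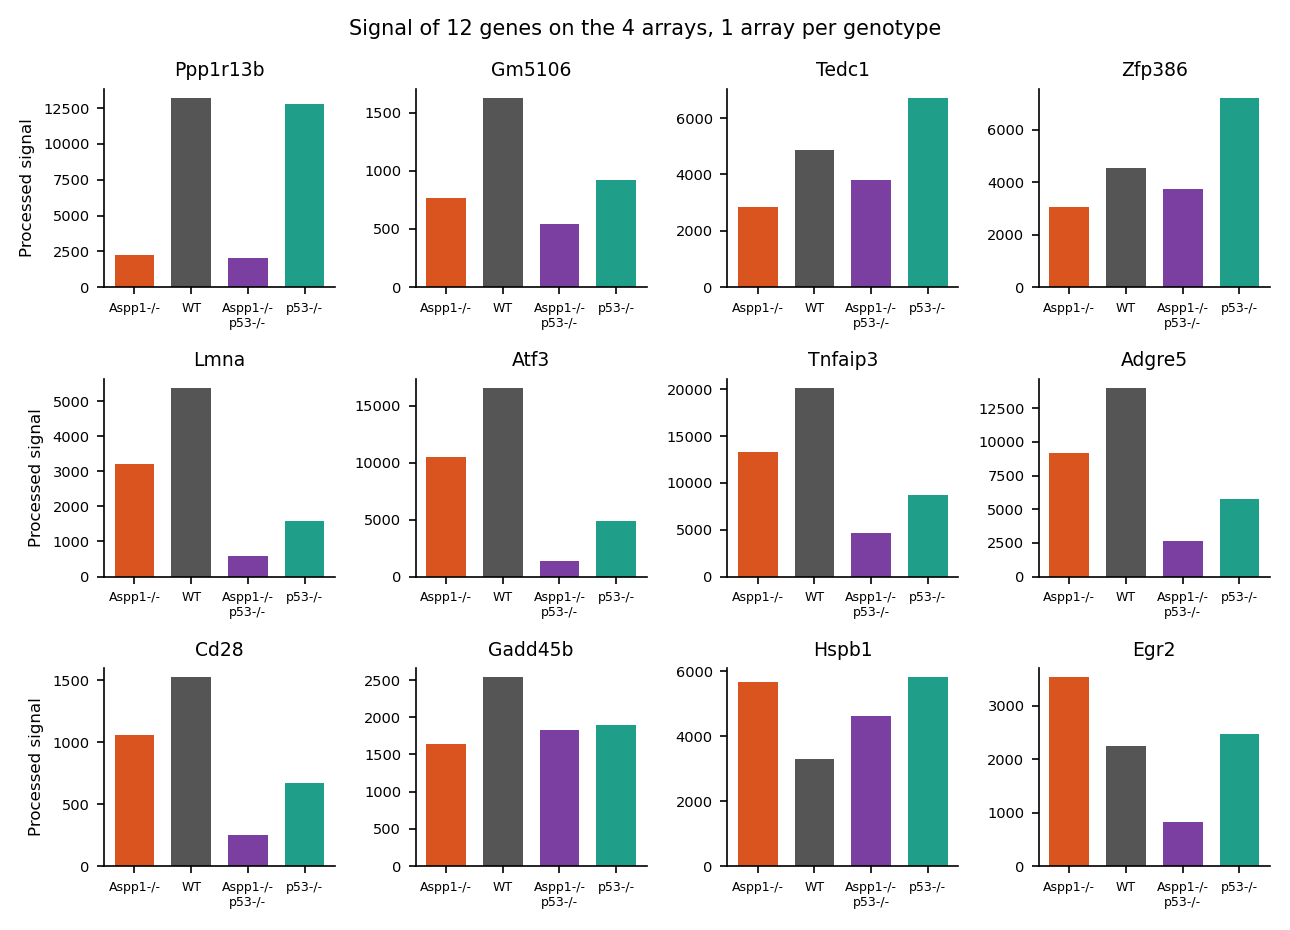
Processed signal, on a linear axis from 0, of 12 genes on the 4 arrays, with 1 bar per genotype and no error bar because each genotype had 1 array. Ppp1r13b stands at 2247 and 2060 on the arrays of Aspp1-deficient cells and at 13182 and 12759 on the others, Gadd45b is lowest on the Aspp1-/- array, and Atf3, Lmna and Cd28 are lowest on the Aspp1-/-p53-/- array.

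Gene lists were read by how many members lay on each side of 0. A list was said to have a direction where at least 5 members were measured and at least 75% lay on 1 side, against 45.1% of all genes below 0 and 54.9% above. Of 39 lists with 5 or more measured members 13 had a direction, 10 lower and 3 higher in Aspp1-/- cells. Their medians were small, from −0.30 to 0.12.

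**Figure D4:**
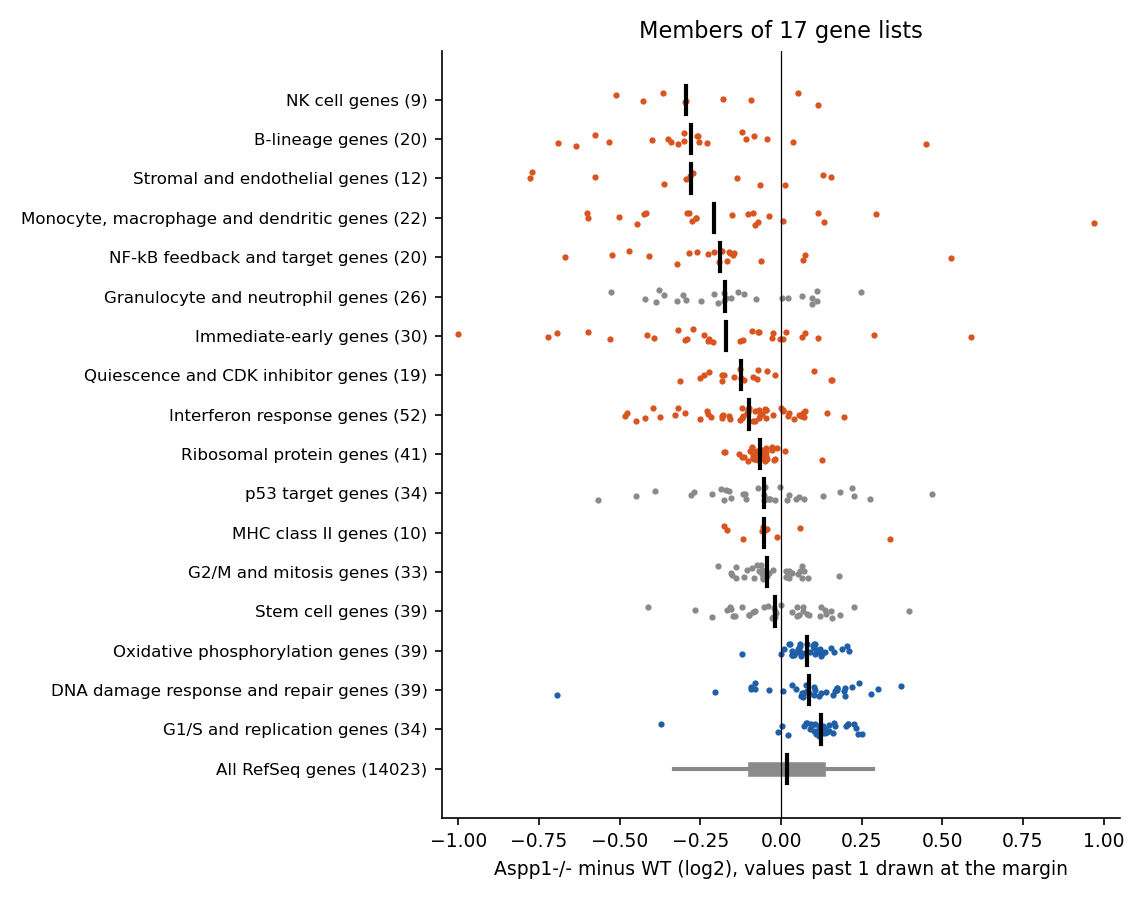
Each point is a measured member of 1 of 17 gene lists, placed by its log2 difference, Aspp1-/- minus WT, with the list's median as a black line and the number measured in brackets; orange lists were lower, blue lists higher and grey lists without a direction, and Egr3 at −2.54 is drawn at the left margin. The lowest row gives all 14023 genes, with a thick bar between the quartiles and a thin one between the 5th and 95th percentiles; B-lineage genes have a median of −0.28 and G1/S genes of 0.12, against 0.02 for all genes.

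Immediate-early genes, the first to be transcribed after a stimulus, lay below 0 for 23 of 30 members (median −0.17). Atf3, a stress-induced transcription factor, had 10504 in Aspp1-/- and 16562 in WT cells (−0.72). Gadd45b, a stress sensor that acts upstream of p38 and JNK kinases, had 1640 in Aspp1-/- and 2535 in WT cells (−0.70). Maff, a small MAF protein, had 1408 in Aspp1-/- and 2035 in WT cells (−0.60). Egr2 went the other way, as given above, and the largest value of the list, Egr3, sits in array row 384. Leaving out the last 12 rows gave a median of −0.13. With the list read only over members well above background on all 4 arrays, it no longer had a direction by the 75% rule.

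Of the NF-kB feedback and target genes, 17 of 20 lay below 0 (median −0.19). Tnfaip3, the ubiquitin-editing enzyme A20 that shuts NF-kB signalling off, had 13274 in Aspp1-/- and 20138 in WT cells (−0.67). The chemokine gene Cxcl2 had 429 in Aspp1-/- and 589 in WT cells (−0.52), and Rel, a subunit of NF-kB, had 48.7 in Aspp1-/- and 64.6 in WT cells (−0.47). The 3 members above 0 were Icam1 and Nfkbid, both at 0.07, and Bcl3, a nuclear IkB protein, with 6514 in Aspp1-/- and 4315 in WT cells (0.53). Of the quiescence and CDK inhibitor genes, 16 of 19 lay below 0 (median −0.12), with Ccng2 (−0.31), Btg1 (−0.25), Foxo3 (−0.24) and Klf2 (−0.22). For Foxo3 the mean of its probes was −0.03.

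Of 52 measured interferon response genes 40 lay below 0 (median −0.10), and none passed 1.5-fold. Ifit3, an antiviral protein that binds RNA complexes, had 87.8 in Aspp1-/- and 117 in WT cells (−0.48). Irf7, the transcription factor that amplifies type I interferon, had 283 in Aspp1-/- and 377 in WT cells (−0.48). Ifi27l2a had 2826 in Aspp1-/- and 3687 in WT cells (−0.45), and Ifit1 had 241 in Aspp1-/- and 308 in WT cells (−0.42). Mx1, the gene whose promoter drives the Cre of the other groups, had 284 in Aspp1-/- and 357 in WT cells (−0.40), with 497 in Aspp1-/-p53-/- and 564 in p53-/- cells. Relative to each array's 75th percentile, the Aspp1-/- array was the lowest of the 4 for 38 of the 52 members (73.1%), against 20.8% of the 13417 genes measured on all 4 arrays. This share draws on the same Aspp1-/- and WT values as the count below 0. A list with most members below 0 holds more such genes by itself, so the share is no separate support. The second pair did not have this direction, with 21 of 52 below 0 and a median of 0.01.

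Because these genes share a known promoter element, their promoters were read from RefSeq (GRCm38.p6). The window was the 250 bases before the transcription start, and the motif searched on both strands was 2 copies of GAAA with any 2 bases between them, the core of the interferon-stimulated response element. Promoters were matched by symbol for 39 of the 52 genes. It occurred in 16 of the 39 (41.0%), against 3.36% of the 11073 measured genes with a promoter in the table. Those 16 members had a median of −0.11 with 14 below 0, and the 23 without a match a median of −0.08 with 14 below 0. The 2 lowest members with the motif are printed because both hold it 2 times; capitals mark the matches, which read on the opposite strand. The window of Ifit3 is chr19:34583279-34583528 and that of Ifit1 is chr19:34640639-34640888, both on the plus strand.
Ifit3: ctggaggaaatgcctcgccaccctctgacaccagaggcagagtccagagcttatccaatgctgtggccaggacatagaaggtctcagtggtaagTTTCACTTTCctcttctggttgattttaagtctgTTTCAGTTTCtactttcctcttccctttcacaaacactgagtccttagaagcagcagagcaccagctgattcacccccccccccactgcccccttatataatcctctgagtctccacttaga
Ifit1: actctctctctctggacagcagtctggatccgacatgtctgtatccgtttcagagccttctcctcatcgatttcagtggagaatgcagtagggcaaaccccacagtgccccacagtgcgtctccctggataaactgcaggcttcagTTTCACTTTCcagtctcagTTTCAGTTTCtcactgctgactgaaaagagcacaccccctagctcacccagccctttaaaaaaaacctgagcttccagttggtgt
A match is a string of letters and says nothing of binding in these cells.

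Among genes of more mature lineages, the B-lineage, NK cell and monocyte lists had a direction, all lower, and the T cell, granulocyte, erythroid, mast cell and megakaryocyte lists had none. Under other processing the T cell, granulocyte and megakaryocyte lists could pass the 75% rule as lower too, as given in the section on processing. Of 20 B-lineage genes 18 lay below 0 (median −0.28), and 2 passed 1.5-fold. Pax5, Blk and Ms4a1 of the same list were not well above background on both arrays. Rag1, which cuts DNA in the rearrangement of antigen receptor genes, had 96.4 in Aspp1-/- and 148 in WT cells (−0.69). Ebf1, which specifies the lineage, had 79.3 in Aspp1-/- and 118 in WT cells (−0.63), Blnk, an adaptor of the pre-B receptor, had 2128 in Aspp1-/- and 3032 in WT cells (−0.58) and Igll1, of the surrogate light chain, had 211 in Aspp1-/- and 291 in WT cells (−0.53). Summed over the list, the levels came to 125 times the array's 75th percentile in Aspp1-/- and 147 times in WT cells. Most of both sums came from the brightest member, Dntt, with 55334 in Aspp1-/- and 62966 in WT cells (−0.25). The sums thus say little of the other members. The Aspp1-/- array was the lowest of the 4 for 13 of 19 members (68.4%), against 20.8% of all genes, a share that reuses the values counted below 0. A search for CCCNNGGG, the palindromic core that Ebf1 binds, found it in 3 of 17 promoters (17.6%), against 17.8% of measured genes.

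Of the other lymphoid lists, that of NK cells had a direction by the 75% rule as well. The 15 genes of lymphoid-primed progenitors had a median of 0.02 with 5 below 0, among them Flt3 (−0.11) with 28346 in Aspp1-/- and 29293 in WT cells. T cell genes lay below 0 in 7 of 12, with Cd28 at −0.59 and Cd2 at 0.54. Of NK cell genes 7 of 9 lay below 0 (median −0.30), led by Il2rb (−0.51) and Xcl1 (−0.43), both at signals under 50 on both arrays. Their summed level was 35.0 in Aspp1-/- and 33.2 in WT cells, since Nkg7, the brightest, was at 0.11. Once the dimmest 25% of probes were left out, 3 members of the NK list remained, with a median of −0.18. That is fewer than the 5 that the 75% rule asks for.

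Of myeloid genes, 17 of 22 of monocytes, macrophages and dendritic cells lay below 0 (median −0.21). Ly86, a partner of the receptor RP105, had 1076 in Aspp1-/- and 1558 in WT cells (−0.60), F13a1, a coagulation factor made by monocytes, had 989 in Aspp1-/- and 1430 in WT cells (−0.60), and the chemokine receptor gene Ccr2 had 105 in Aspp1-/- and 143 in WT cells (−0.50). The Aspp1-/- array was the lowest of the 4 for 14 of 20 members (70.0%), against 20.8% of all genes, again with the values counted below 0. Cd14, a lipopolysaccharide co-receptor, was the highest of the 5 members above 0 and the one past 1.5-fold on the high side, with 859 in Aspp1-/- and 419 in WT cells (0.97), against 608 in Aspp1-/-p53-/- and 589 in p53-/- cells. Of granulocyte and neutrophil genes 18 of 26 lay below 0, short of the 75% rule (median −0.17). Their lowest were Elane, neutrophil elastase, with 7079 in Aspp1-/- and 9739 in WT cells (−0.53) and Ngp, of secondary granules, with 1453 in Aspp1-/- and 1860 in WT cells (−0.42). Mast cell and basophil genes had 10 of 14 below 0, with Alox5 at −0.43 and the tryptase gene Tpsb2 at 0.41. Erythroid genes had 15 of 24 below 0, among them Car1 (−0.36) and Klf1 (−0.25), and megakaryocyte genes 14 of 19, among them Pf4 (−0.34) and Treml1 (−0.34). The part of residual mature cells in these values was not tested.

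Genes of antigen presentation differed little. Of MHC class II genes 8 of 10 lay below 0 (median −0.05), and H2-DMb2 was at 0.34 on signals of 32.9 in Aspp1-/- and 24.8 in WT cells. Of MHC class I and antigen processing genes 10 of 14 did (median −0.05), led by H2-T23 (−0.16) and B2m (−0.14). Stromal and endothelial genes, of cells that the gate should leave out, had 9 of 12 measured members below 0 (median −0.28). The other 11 of the 23, Kitl, Cdh5, Col1a1 and Pdgfra among them, were not well above background on both arrays. Vcam1 had 108 in Aspp1-/- and 176 in WT cells (−0.78), Cxcl12, a chemokine of the stem cell niche, had 110 in Aspp1-/- and 178 in WT cells (−0.77, other probe −0.72), and the collagen gene Col1a2 had 128 in Aspp1-/- and 182 in WT cells (−0.58). The summed level of this list was 30.5 in Aspp1-/- and 35.5 in WT cells. The larger part of both sums came from Apoe, with 9580 in Aspp1-/- and 11129 in WT cells (−0.28). Whether LSK cells themselves express members of this list was not tested, nor was the part of stromal or endothelial cells in other values.

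Stem cell genes were spread on both sides. Of 39, 21 lay below 0 and 18 above, with a median of −0.02 and none past 1.5-fold. Myct1, a nuclear protein of stem and endothelial cells, had 4199 in Aspp1-/- and 5332 in WT cells (−0.41), and Erg and Runx1, transcription factors needed for stem cell upkeep, were at −0.27 and −0.22. Slamf1, which encodes CD150, had 147 in Aspp1-/- and 120 in WT cells (0.22), and Mecom was at 0.18. Procr had 6088 in Aspp1-/- and 5892 in WT cells (−0.02).

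Genes of S phase entry and replication leaned higher in Aspp1-/- cells: 32 of 34 lay above 0 (median 0.12), and none passed 1.5-fold. Cdc6, which loads the replicative helicase, had 1254 in Aspp1-/- and 1005 in WT cells (0.25). Rfc4, of the clamp loader, had 10799 in Aspp1-/- and 8746 in WT cells (0.24), Chaf1b, of a histone chaperone, had 21205 in Aspp1-/- and 17244 in WT cells (0.23) and Mcm5, of the helicase, had 21521 in Aspp1-/- and 17802 in WT cells (0.21). These 4 differences were close to the scanner error of 0.20, and 54.9% of all genes lay above 0. The 2 members below 0 were Cdc45, of the helicase complex, at −0.01 and Pola1, the catalytic subunit of polymerase alpha, with 5248 in Aspp1-/- and 6490 in WT cells (−0.37). The Aspp1-/- array was the highest of the 4 for 19 of 34 members (55.9%), against 24.4% of all genes. This share reuses the values counted above 0, so it is no separate support. Genes of G2 and mitosis did not share the direction, with 14 of 33 above 0 and a median of −0.04. Kif11, a mitotic kinesin, was at 0.18 and Kif23, of cytokinesis, at −0.19.

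The E2F family of transcription factors binds promoters of many S phase genes. Its core TTTNNCGC was searched on both strands of the same window of 250 bases, and it occurred in 10 of 29 promoters matched (34.5%), against 7.67% of measured genes. Members with the motif had a median of 0.12 with 9 of 10 above 0, and the 19 without it a median of 0.13 with 18 above 0. The windows of Cdc6 (chr11:98907901-98908150, plus strand) and Mcm5 (chr8:75109259-75109508, plus strand, GRCm38.p6, RefSeq) are printed as the 2 highest members with the motif; capitals mark the matches, and in Mcm5 a match on each strand overlaps the other.
Cdc6: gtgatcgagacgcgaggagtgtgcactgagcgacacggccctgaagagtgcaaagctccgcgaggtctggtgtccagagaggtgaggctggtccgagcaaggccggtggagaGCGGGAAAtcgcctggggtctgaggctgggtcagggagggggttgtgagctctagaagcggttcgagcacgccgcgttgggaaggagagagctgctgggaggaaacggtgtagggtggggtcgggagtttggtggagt
Mcm5: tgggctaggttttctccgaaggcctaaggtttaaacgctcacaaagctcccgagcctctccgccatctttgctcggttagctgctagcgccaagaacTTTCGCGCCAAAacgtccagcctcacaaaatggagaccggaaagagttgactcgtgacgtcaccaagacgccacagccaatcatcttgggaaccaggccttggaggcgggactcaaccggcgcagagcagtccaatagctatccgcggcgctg
The median was thus alike with and without the motif.

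Of 39 DNA damage response and repair genes 32 lay above 0 (median 0.09). The checkpoint kinase gene Atr had 6363 in Aspp1-/- and 4928 in WT cells (0.30) and Mre11a, a nuclease at DNA breaks, had 3583 in Aspp1-/- and 2820 in WT cells (0.28). Gadd45b, also on this list, was the lowest at −0.70, and Chek2 was at −0.21. Polycomb, DNA methylation and chromatin genes had 18 of 28 above 0 with a median of 0.05, among them Asxl1 (0.19), Dnmt3b (0.17) and Ezh2 (0.14).

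Of 39 oxidative phosphorylation genes 38 lay above 0 (median 0.08), and they ranged from −0.12 to 0.21. Cycs, cytochrome c, had 23449 in Aspp1-/- and 19331 in WT cells (0.21), and Ndufs7, of complex I, had 27878 in Aspp1-/- and 23076 in WT cells (0.21). The Aspp1-/- array was the highest of the 4 for 29 of the 39 (74.4%), against 24.4% of all genes, a share that reuses the values counted above 0. Glycolysis genes had 14 of 21 above 0 with a median of 0.10, led by Tpi1 (0.29), and Myc was at 0.29. Ribosomal protein genes, the brightest list, lay below 0 for 39 of 41 (median −0.07) and ranged from −0.18 to 0.13. That count depended on quantile normalization: scaling each array to its median kept 39 of 41 below 0 (median −0.08), whereas after quantile normalization 21 of 41 were below 0 and 17 above, with a median of 0.00.

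Signalling lists held single genes apart from their list. Of 15 measured Notch pathway genes 10 were below 0 with a median of −0.11. Hey1, a target of Notch, had 68.2 in Aspp1-/- and 145 in WT cells (−1.16), Jag2, a ligand, had 1131 in Aspp1-/- and 1479 in WT cells (−0.45), and Hes1, another target, had 79.2 in Aspp1-/- and 103 in WT cells (−0.45), while the receptor gene Notch1 had 597 in Aspp1-/- and 493 in WT cells (0.21). TGF-beta and BMP genes had 12 of 22 above 0, with the BMP target Id3 at −0.66 (162 in Aspp1-/- and 244 in WT cells), the SMAD corepressor Skil at −0.58 (1498 in Aspp1-/- and 2142 in WT cells) and the receptor gene Bmpr2 at 0.45 in array row 382. WNT genes had 11 of 23 above 0, with the receptor genes Fzd4 at −0.51 and Fzd5 at 0.47. Cytokine receptor and JAK-STAT genes ran from −0.30 (Lifr) to 0.28 (Socs2), with 21 of 35 below 0. Hippo and YAP genes lay between −0.17 and 0.23.

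Further lists had no direction. In the cAMP list, 14 of 22 were below 0. Its largest value was Adcy3 in array row 373, and Crem, a cAMP-responsive transcription factor, had 442 in Aspp1-/- and 652 in WT cells (−0.63, other probe −0.75). Among 13 voltage-gated potassium channel genes Kcna5 was at −1.45, with 79.6 in Aspp1-/- and 208 in WT cells, against 80.1 in Aspp1-/-p53-/- and 87.7 in p53-/- cells, so that WT was the high array. Integrin and adhesion genes had 10 of 25 above 0, with Cdh2 at 0.68 on signals of 67.4 in Aspp1-/- and 40.3 in WT cells. Heat shock and chaperone genes had 7 of 15 above 0, with Hspb1 the one past 1.5-fold. Genes of the unfolded protein and integrated stress responses had 11 of 24 above 0, with Ddit3, the transcription factor CHOP, at 1724 in Aspp1-/- and 2188 in WT cells (−0.41) and the chaperone gene Calr at 0.26. Antioxidant and NRF2 target genes had 14 of 23 above 0, with Hmox1, haem oxygenase 1, at −0.52 on its brightest probe and −0.21 over the mean of its probes. Cholesterol synthesis genes had 14 of 22 below 0, with a median of −0.05.

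Aspp1-/-p53-/- against p53-/- cells offered the same loss on arrays that the first pair does not share. Over all 13417 genes measured with the same probe in both pairs, 60.4% had the same sign. Of the genes past 2-fold with p53 present, 17 could be measured in the second pair, 11 had the same sign, and 1, Ppp1r13b, passed 2-fold again (0.749% of all genes were 2-fold lower in that pair). Of the 174 genes past 1.5-fold that could be measured, 114 had the same sign (65.5%), with 82 of 115 among the lower genes (71.3%) and 32 of 59 among the higher (54.2%). Past 1.5-fold the same way in both pairs were 27 genes, 22 lower and 5 higher. In the second pair, 2.22% of all genes were 1.5-fold lower and 0.905% higher.

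**Figure D5:**
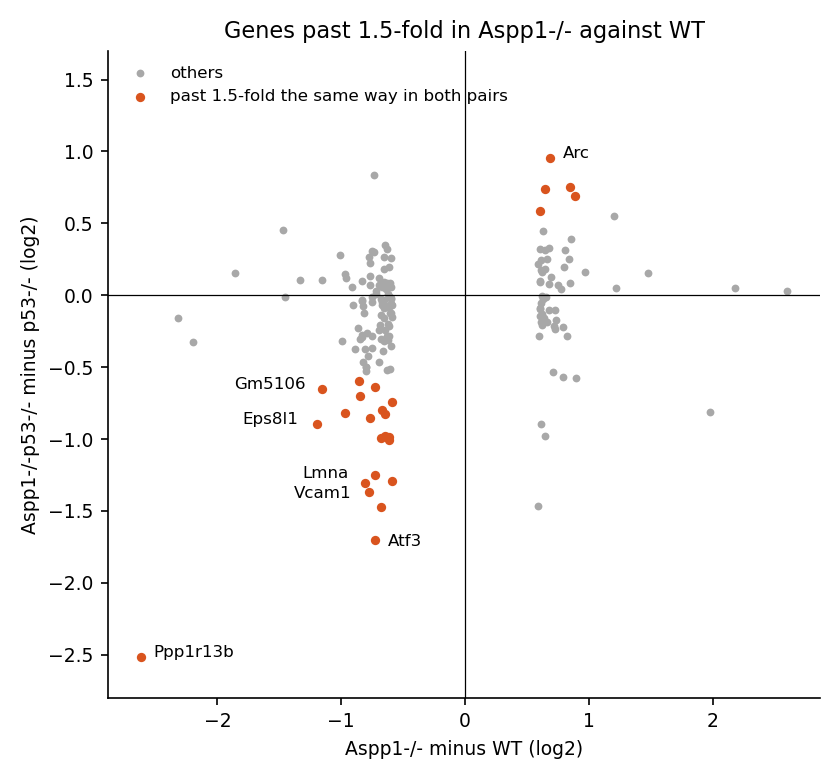
Log2 difference in the second pair, Aspp1-/-p53-/- minus p53-/-, against that of Aspp1-/- minus WT, for the 174 genes past 1.5-fold in Aspp1-/- against WT and well above background on all 4 arrays. Orange points are the 27 genes past 1.5-fold the same way in both pairs, with Ppp1r13b at −2.62 and −2.52, and most other points lie near 0 on the vertical axis.

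The genes lower in both pairs, chosen after their values were seen, included Atf3, Tnfaip3, Lmna, Adgre5, Cd28, Vcam1, Cxcl12 and Crem. Atf3 was at −0.72 with p53 present and −1.70 in the second pair, with 1390 in Aspp1-/-p53-/- and 4890 in p53-/- cells. Lmna was at −0.81 and −1.30, with 587 in Aspp1-/-p53-/- and 1570 in p53-/- cells. Tnfaip3 was at −0.67 and −0.80, with 4610 in Aspp1-/-p53-/- and 8680 in p53-/- cells, and Cd28, a costimulatory receptor, at −0.59 and −1.29, with 254 in Aspp1-/-p53-/- and 673 in p53-/- cells. On each of these 4 the Aspp1-deficient array was the lower of its pair, and both arrays without p53 were lower than both others. Eps8l1, an actin regulator, was lower to a like size in each pair, at −1.19 (184 in Aspp1-/- and 401 in WT cells) and −0.89 (168 in Aspp1-/-p53-/- and 338 in p53-/- cells). Ear2, an eosinophil-associated ribonuclease, was at −0.97 and −0.82 on signals of 95.6 in Aspp1-/- and 179 in WT cells, and 51.4 in Aspp1-/-p53-/- and 98.1 in p53-/- cells. Gm5106 was at −1.16 and −0.66, with 540 in Aspp1-/-p53-/- and 922 in p53-/- cells.

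The 5 genes higher in both pairs were Arc, Them6, Fkbp11, D130051D11Rik and Gm10847, of which 4 lie on chromosome 15, which holds 551 of the 14023 genes, and Gm10847 lies on chromosome 14. Arc, an activity-induced gene of neurons, had 202 in Aspp1-/- and 120 in WT cells (0.69), and 424 in Aspp1-/-p53-/- and 238 in p53-/- cells (0.95). The others had signals of at most 108 in Aspp1-/- cells. The probes of Them6 and Arc lie 54.3 kb apart.

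Lists with a direction in both pairs were B-lineage, immediate-early, NF-kB, and stromal and endothelial genes, all lower, and G1/S and replication genes, which were higher; no list had opposite directions. In the second pair 48.7% of all genes lay below 0 and 51.3% above. B-lineage genes lay below 0 there in 19 of 19 (median −0.21). For NF-kB genes it had 16 of 19 with a median of −0.24, and for stromal and endothelial genes 11 of 13 with a median of −0.19. Immediate-early genes were below 0 in 23 of 27 with a median of −0.64, against −0.17 with p53 present. G1/S genes were above 0 in 29 of 34 with a median of 0.05. Egr2, in array row 19, differed in sign, at 0.59 with p53 present and −1.47 in the second pair (822 in Aspp1-/-p53-/- and 2466 in p53-/- cells). In rows 7 to 24, 15.9% of the p53-/- array's probes stood at least 2-fold above each of the other 3 arrays. The SD of the second pair's differences there was 0.45. Gadd45b, Ly86 and F13a1, at −0.70, −0.60 and −0.60 with p53 present, were at 0.07, 0.05 and −0.02. Whether any of these differences differs between the pairs was not tested, since each array stands alone.

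Around the targeted locus, 32 genes had a probe within 1 Mb of that of Ppp1r13b. None passed 1.5-fold, their median was 0.01 and they ranged from −0.33 (Zfp839) to 0.54 (Aspg), and in 23 of the 32 the second pair had the same sign. Zfyve21, an endosomal protein whose probe starts 494 bases from that of Ppp1r13b, had 781 in Aspp1-/- and 516 in WT cells (0.53), and 956 in Aspp1-/-p53-/- and 712 in p53-/- cells (0.54). Both Aspp1-deficient arrays were thus above their partner by a like amount. Trmt61a, of a tRNA methyltransferase, had 5155 in Aspp1-/- and 3709 in WT cells (0.41) but 0.05 in the second pair. Farther along chromosome 12 were 2 more of the genes lower in both pairs, named after their values were seen. Tedc1, 1.34 Mb from the Ppp1r13b probe on mm9, was at −0.85 and −0.70 on its brightest probe and at −2.88 and −1.51 on the other, which had 291 in Aspp1-/- and 2042 in WT cells, and 1045 in Aspp1-/-p53-/- and 3215 in p53-/- cells. Zfp386, a zinc finger protein at 4.23 Mb, was at −0.65 and −0.82 on its brightest probe, and its 2 other probes gave −0.29 and −0.56 with p53 present. With Ppp1r13b they make 3 of the 27 genes past 1.5-fold in both pairs, from a chromosome that holds 477 of the 14023 genes.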

How the data were processed

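RNA of LSK cells, pooled from 3 mice per genotype, was hybridised to 4 Agilent arrays of design 028005, in 1 colour and with 1 array per genotype, all on 1 slide. Per the file headers, the authors used Feature Extraction 10.7.3.1, whose processed intensity has the background subtracted and no scaling across arrays. Mean and local background intensity, and flags of 0 or 1 that count as other values, come from the same deposited files. The authors' value table holds log2 values, and its differences matched those of the scanner files (r = 1 over 28430 probes). Its column medians were −0.0417 for Aspp1-/- and −0.0657 for WT, and its constant per array remains unknown.

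Control spots (3671 per array) and outlier spots (121 for Aspp1-/-, 120 for WT, 172 for Aspp1-/-p53-/- and 171 for p53-/-) were left out, and spots of a probe were averaged. The log2 signal was taken relative to the array's 75th percentile over gene spots. Probes were named through RefSeq (26861 by accession, 3751 by symbol, 623 by synonym), and 24440 had no RefSeq gene and entered as transcripts. With 1 array per genotype there is no residual degree of freedom, so rules of size replaced tests. The number of arrays limits the precision. The steps were checked on simulated data. Limma 3.58.1 served for normexp, and Python 3.11.15 for the rest. The members, the 40 gene lists and the rules were chosen with earlier results of these data known. The genes named were the targeted family, the 12 largest differences each way, the 4 largest of each list, all list members past 2-fold and genes within 1 Mb past 1.5-fold, except that a few are not reported here; others are said to be chosen after their values were seen or are examples of their list. Results were recomputed under 8 other settings chosen at the outset and 2 chosen later.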

Additional observations from a re-analysis of the deposited data

How the results depend on the processing

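No paired analysis was possible because each genotype had 1 array, and no replicate could be left out. Ppp1r13b lay between −2.64 and −2.57 under the 10 alternatives, and the median of all genes moved by at most 0.02. Counts of dim genes depended on the processing; in what follows the 2-fold counts are higher then lower. Normexp background with an offset of 50, which shrinks dim differences, gave 5 and 12 (13 and 57 at 1.5-fold) and 5 genes of the same sign in the second pair, against 16 and 31 (88 and 179) and 11. Genes well above background on all 4 arrays gave 6 and 11 (116 lower at 1.5-fold). Counting bounds, with background on 1 array, gave 101 and 222 (241 and 437). Leaving out the dimmest 25% of probes gave 2 and 6 (14 and 55) and 6 of the same sign, and the mean of a gene's probes gave 17 of the same sign. Chosen after seeing the data, leaving out the last 12 array rows gave 6 higher and 7 of the same sign, and leaving out the first 24 rows as well gave 5 and 7. The settings that leave out probes or rows measured fewer genes, whereas normexp measured the same 14023. The causes of the smaller counts were not tested. Single genes changed sign under the mean of probes (H2-Ob at 0.336, Stk4 at 0.0947, Uty at −0.0115), without the last 12 rows, with or without the first 24 (Kcnd1 at 0.0889) and without both ends (Uty at −0.178). Of list medians, 384 values under the alternatives stayed within the spread between spots and 6 moved past it (NK cell genes, and monocyte, macrophage and dendritic genes), none with a change of sign. By the 75% rule, immediate-early genes lost their direction under 4 alternatives and the NK, stromal, MHC class II and ribosomal lists under 1 or 2 each. Other lists gained one. Lower were granulocyte genes over all 4 arrays (18 of 24), megakaryocyte genes under the mean of probes (15 of 19) and G2/M genes under normexp (26 of 33). Without both ends, T cell genes (6 of 8) and MHC class I genes (10 of 13) were lower. Hippo genes were higher without the dimmest 25% (6 of 8).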

Other observations

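In the comparison of Aspp1-/- with WT cells, the median difference per chromosome ran from −0.0027 on chromosome 12 to 0.035 on chromosome 8. The share of genes at least 2-fold apart ran from 0% on chromosomes 10, 15, 19 and Y, the last with 4 genes measured, to 0.839% (4 of 477) on chromosome 12 and 0.951% (5 of 526) on chromosome 13.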
